A study of Homo sapiens with 12 samples.

Results

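TMPRSS2 and the genes of its class and their inhibitors were followed by RNA sequencing in C4-2 cells, a human prostate cancer line derived from LNCaP that grows without testicular androgen. The set held 8 genes, chosen by symbol: the proteases TMPRSS2, TMPRSS3, TMPRSS4, ST14, HPN and PRSS8 and the inhibitors SPINT1 and SPINT2. All 8 symbols were found among the 56269 of the count table, and 7 were among the 16115 genes that passed the filter on low counts. TMPRSS3 did not pass. The 4 groups, of 3 libraries each, were paxillin (PXN) siRNA with dihydrotestosterone (DHT), PXN siRNA with ethanol vehicle, nonspecific (NSP) siRNA with DHT, and NSP siRNA with ethanol vehicle. All groups shared the C4-2 background, 48 h of siRNA, 12 h without serum and a final 24 h with hormone or vehicle. DHT, the main androgen of the prostate, was given at 2.5 nM. PXN encodes paxillin, an adaptor protein of focal adhesions. Nothing in the labels tells whether a replicate was a culture of its own; every p-value is thus a measure of the spread among these 12 libraries, which may be technical, and all values come from 1 cell line.

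Type II transmembrane serine proteases are held in the plasma membrane by a segment near their amino terminus and cut proteins after arginine or lysine at the cell surface. TMPRSS2 is a known androgen-induced gene of prostate epithelium, cuts the surface proteins of several respiratory viruses, and in many prostate tumours is fused to an ETS transcription factor gene. ST14 encodes matriptase and HPN encodes hepsin, both of which can activate the precursor of hepatocyte growth factor (HGF). PRSS8 encodes prostasin, a lipid-anchored protease that works in a cascade with matriptase and acts on the epithelial sodium channel. SPINT1 and SPINT2 encode the Kunitz-type inhibitors HAI-1 and HAI-2, which block matriptase, hepsin and prostasin to differing degrees. TMPRSS3 is known for inherited deafness, and TMPRSS4 is a related protease of epithelial cells.

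In the GENCODE 29 annotation on GRCh38, TMPRSS2 lay on the minus strand at chr21:41464551-41531116 and TMPRSS3 on the same strand at chr21:42371837-42396846, so their starts were 865.7 kb apart. TMPRSS4 lay at chr11:118077012-118121890 and ST14 at chr11:130159562-130210376, both on the plus strand. HPN lay at chr19:35040506-35066571 and SPINT2 at chr19:38244035-38292614, both on the plus strand. PRSS8 lay on the minus strand at chr16:31131433-31135762, and SPINT1 on the plus strand at chr15:40844018-40858207. The antisense gene HPN-AS1 covered 349 exon bases of HPN (10.3% of its exon bases), AC009088.3 covered 357 of PRSS8 (11.9%) and SPINT1-AS1 covered 100 of SPINT1 (2.82%). HPN-AS1 had 0 to 4 counts per library. The strand setting of the authors' counting is not given in the sources used here, so reads of HPN, PRSS8 and SPINT1 and of their antisense partners are uncertain to that extent. AC011479.1 shares 242 exon bases with SPINT2 on the same strand (4.65%), which could also move reads between those 2 genes.

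RefSeq promoters on GRCh38.p14 were matched for 3 of the 8 genes, HPN, SPINT1 and TMPRSS3, with 2 starts for SPINT1. These are shown because the promoter set used here had no entry for the other genes, TMPRSS2 among them. HPN was called higher with DHT under NSP siRNA, SPINT1 is an inhibitor of the same proteases and TMPRSS3 was near 0 counts. Each sequence runs from 250 bases before to 50 bases after a transcription start, 5′ to 3′ on the strand of the gene. Capitals mark AGAACA (the half-site of steroid receptors), TATAAA (the TATA box), GGGCGG (the GC box) and CAGGTG (an E-box) on either strand.
HPN, chr19:35041471-35041770, plus strand: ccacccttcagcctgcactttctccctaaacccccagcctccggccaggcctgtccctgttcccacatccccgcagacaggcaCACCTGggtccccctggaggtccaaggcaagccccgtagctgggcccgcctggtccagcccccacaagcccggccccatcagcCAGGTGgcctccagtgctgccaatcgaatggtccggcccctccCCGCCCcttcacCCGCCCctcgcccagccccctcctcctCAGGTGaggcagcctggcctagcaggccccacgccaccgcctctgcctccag
SPINT1, first start, chr15:40843798-40844097, plus strand: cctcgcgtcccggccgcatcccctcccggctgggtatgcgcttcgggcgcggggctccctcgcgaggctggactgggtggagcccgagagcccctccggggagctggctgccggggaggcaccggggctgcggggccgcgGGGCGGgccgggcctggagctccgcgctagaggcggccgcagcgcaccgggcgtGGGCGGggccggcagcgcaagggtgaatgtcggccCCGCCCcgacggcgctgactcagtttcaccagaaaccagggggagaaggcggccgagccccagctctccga
SPINT1, second start, chr15:40844227-40844526, plus strand: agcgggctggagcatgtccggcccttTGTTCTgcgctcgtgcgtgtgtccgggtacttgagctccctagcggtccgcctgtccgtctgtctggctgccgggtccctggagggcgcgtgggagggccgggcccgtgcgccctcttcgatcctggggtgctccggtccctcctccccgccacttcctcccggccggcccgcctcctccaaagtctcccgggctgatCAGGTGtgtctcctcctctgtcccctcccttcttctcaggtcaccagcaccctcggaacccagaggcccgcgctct
TMPRSS3, chr21:42389100-42389399, minus strand: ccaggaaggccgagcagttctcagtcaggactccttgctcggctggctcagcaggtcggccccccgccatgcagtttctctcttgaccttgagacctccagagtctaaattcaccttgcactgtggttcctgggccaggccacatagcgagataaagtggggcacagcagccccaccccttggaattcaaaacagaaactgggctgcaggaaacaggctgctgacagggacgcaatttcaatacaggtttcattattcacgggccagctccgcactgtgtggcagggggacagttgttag
The HPN promoter held 2 GC boxes and 3 E-boxes, the first SPINT1 promoter 3 GC boxes, the second SPINT1 promoter 1 AGAACA and 1 E-box, and the TMPRSS3 promoter none of the 4 motifs. The HPN, second SPINT1 and TMPRSS3 sequences lie wholly inside the GENCODE spans of their genes, so they belong to internal starts. Promoters at the outermost starts of HPN and TMPRSS3 are not shown. Over 35116 RefSeq promoters of this length, 14.8% held AGAACA, 11.5% TATAAA, 45% GGGCGG and 20.6% CAGGTG. The GC content was 71% for HPN, 77.7% for the first SPINT1 start, 69.7% for the second and 56.3% for TMPRSS3, against a median of 58.7% over all promoters. The number of CpG sites was 12 for HPN, 38 for the first SPINT1 start, 25 for the second and 8 for TMPRSS3, against a median of 14.

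Library totals ran from 11944906 counts (NSP vehicle replicate 1, the shallowest) to 32040465, so that 1 count was worth 0.0328 to 0.0815 CPM, the count scaled to a common total (TMM). PXN averaged 11.6 CPM with PXN siRNA against 127 CPM with NSP siRNA in DHT, and 13.8 CPM with PXN siRNA against 146 CPM with NSP siRNA in vehicle, which checks the siRNA labels. FKBP5, a known androgen target, was at 914 to 1150 CPM in PXN DHT libraries and 46.3 to 49.7 CPM in PXN vehicle libraries, and at 1090 to 1410 CPM in NSP DHT libraries and 44.8 to 49.0 CPM in NSP vehicle libraries. All 8 listed luminal prostate markers were detected in every group, with summed levels of 13000 to 13800 CPM in PXN DHT, 7210 to 8420 CPM in PXN vehicle, 13900 to 14600 CPM in NSP DHT and 7900 to 9200 CPM in NSP vehicle. That list holds the androgen targets KLK2 and KLK3; the part of it and of the lists that follow in the results was not tested. The 4 basal markers summed to 0.163 to 1.07 CPM and the 3 leukocyte markers to 0 to 0.408 CPM over the 12 libraries. The 3 neuroendocrine markers summed to 2.18 to 5.31 CPM in PXN DHT, 1.52 to 2.83 CPM in PXN vehicle, 3.45 to 6.28 CPM in NSP DHT and 2.22 to 3.68 CPM in NSP vehicle, and the 3 endothelial markers to 8.3 to 15 CPM over all. The 3 fibroblast markers summed to 24.8 to 27.4 CPM in PXN DHT, 32.4 to 35.7 CPM in PXN vehicle, 33.9 to 37.8 CPM in NSP DHT and 37.6 to 47.6 CPM in NSP vehicle. Nearly all of each of these last sums came from 1 gene. By group mean, COL1A1 was at 26.3 to 41.2 CPM, with COL1A2 at most 0.038 and DCN at most 0.0231 CPM. The endothelial VWF was at 9.95 to 12.6 CPM, with PECAM1 at most 0.0558 and CDH5 at most 0.0415 CPM. The neuroendocrine SYP was at 1.9 to 4.97 CPM, with NCAM1 at most 0.301 and CHGA at most 0.0431 CPM.

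TMPRSS2 rose with DHT under both siRNAs, with the largest log2 fold change of the 7 genes tested. With PXN siRNA, the libraries had 2440, 2250 and 2310 CPM of TMPRSS2 in DHT, against 515, 421 and 387 CPM in vehicle. With NSP siRNA they had 2800, 2430 and 2450 CPM in DHT, against 673, 450 and 391 CPM in vehicle. The lowest DHT library was far above the highest vehicle library under both siRNAs. In bulk RNA, a change in the number of cells with a transcript and a change in the amount per cell cannot be told apart. By edgeR's quasi-likelihood test with Benjamini-Hochberg adjustment, TMPRSS2 rose 5.29-fold with PXN siRNA (log2 fold change 2.40, SE 0.15, adjusted p = 6.7e-10) and 5.09-fold with NSP siRNA (2.35, SE 0.15, adjusted p = 9.4e-10). Paired by replicate number, the DHT to vehicle ratio of CPM was 4.73, 5.35 and 5.96 with PXN siRNA and 4.16, 5.41 and 6.28 with NSP siRNA. The lowest of these ratios belonged to replicate 1 under both siRNAs, whose vehicle libraries had the most TMPRSS2. Of the 16115 genes tested, 1.6% had a larger absolute log2 fold change with PXN siRNA and 1.74% with NSP siRNA.

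**Figure D1:**
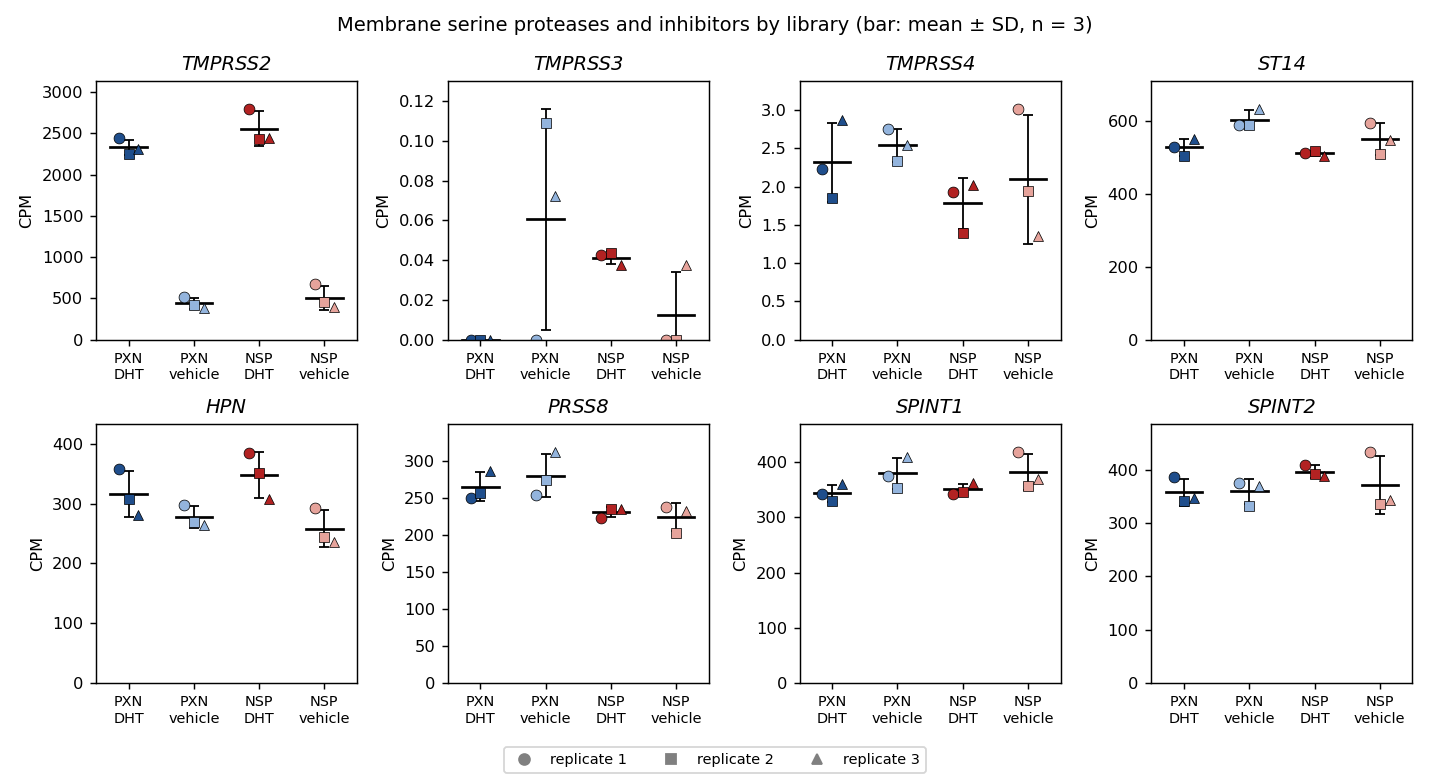
CPM of each of the 8 genes in every library (points, with 1 symbol per replicate number) by group, with mean and SD (n = 3 libraries); each panel has its own axis from 0. TMPRSS2 stands at 2250 to 2800 CPM in DHT and 387 to 673 CPM in vehicle, TMPRSS3 stays at 0 to 3 counts per library, and the other genes differ far less between groups.

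Paxillin siRNA left no called difference in TMPRSS2. In DHT the log2 fold change of PXN over NSP siRNA was -0.13 (95% interval -0.44 to 0.17, adjusted p = 0.59), and in vehicle it was -0.19 (-0.50 to 0.12, adjusted p = 0.39), both by edgeR. All 6 same-number ratios of TMPRSS2 CPM, PXN over NSP siRNA, were below 1, at 0.87, 0.927 and 0.94 in DHT and 0.766, 0.937 and 0.99 in vehicle, and the fit with the replicate block called neither difference. In vehicle the value turned to 0.08 without NSP vehicle replicate 1, the shallowest library, which had the highest vehicle level of TMPRSS2. The interaction, which sets the DHT response with PXN siRNA against that with NSP siRNA, was 0.06 for TMPRSS2 (-0.37 to 0.49, adjusted p = 0.96). The interval includes a response up to 1.40-fold larger or 0.771 times as large with PXN siRNA.

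HPN rose with DHT in cells with NSP siRNA. Its NSP libraries had 385, 352 and 308 CPM in DHT, against 293, 245 and 236 CPM in vehicle, with no overlap. The change was 1.35-fold (log2 fold change 0.43, SE 0.099, edgeR adjusted p = 0.0019). With PXN siRNA, HPN was at 359, 308 and 282 CPM in DHT, against 298, 270 and 265 CPM in vehicle, and these ranges overlapped. That log2 fold change of 0.19 (-0.02 to 0.39) was not called (edgeR adjusted p = 0.15). It passed with the replicate number as a block (0.18, adjusted p = 0.0079) and without the filter on low counts (0.20, adjusted p = 0.034). The value was 0.10 with upper-quartile scaling and 0.09 without PXN DHT replicate 1. None of the 12 edgeR fits with 1 library left out called it (adjusted p of 0.063 to 0.54). All 3 same-number ratios were above 1 with PXN siRNA, at 1.20, 1.14 and 1.07, and with NSP siRNA at 1.31, 1.43 and 1.31. The difference between the 2 DHT responses of HPN was not called (interaction -0.25, -0.54 to 0.05, adjusted p = 0.63). HPN did not differ by a called amount between siRNAs, at -0.14 in DHT (adjusted p = 0.39) and 0.11 in vehicle (adjusted p = 0.49).

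ST14, the matriptase gene, fell with DHT in cells with PXN siRNA. These cells had 527, 504 and 549 CPM of ST14 in DHT, against 589, 589 and 633 CPM in vehicle. The ranges did not overlap, and the fall was to 0.873 of the vehicle level (log2 fold change -0.20, SE 0.067, edgeR adjusted p = 0.027). The call was lost without PXN DHT replicate 1 (adjusted p = 0.066), PXN DHT replicate 2 (0.12) or PXN vehicle replicate 3 (0.088). With NSP siRNA, ST14 was at 512, 517 and 504 CPM in DHT, against 595, 508 and 547 CPM in vehicle, which overlapped (-0.10, adjusted p = 0.23). With upper-quartile scaling that value was -0.18 and passed (adjusted p = 0.037). The 2 responses did not differ by a called amount (interaction -0.09, adjusted p = 0.82).

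PRSS8, the prostasin gene, was higher with PXN siRNA. In vehicle the PXN libraries had 254, 274 and 312 CPM, against 238, 202 and 232 CPM in the NSP libraries, with no overlap. The rise was 1.25-fold (log2 fold change 0.32, SE 0.081, edgeR adjusted p = 0.0089). The call was lost without PXN vehicle replicate 3 (0.24, adjusted p = 0.055) or NSP vehicle replicate 2 (0.26, adjusted p = 0.056). In DHT the PXN libraries had 250, 257 and 286 CPM, against 223, 235 and 235 CPM in the NSP libraries, again with no overlap. This difference of 0.20 (0.03 to 0.37) was not called (adjusted p = 0.12), but passed with the replicate block (0.19, adjusted p = 0.031) and without the filter (0.21, adjusted p = 0.046). DHT gave no called change in PRSS8, at -0.08 with PXN siRNA (adjusted p = 0.46) and 0.04 with NSP siRNA (adjusted p = 0.7).

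TMPRSS4 was low and TMPRSS3 was near the limit of detection. TMPRSS4 had 2.23, 1.85 and 2.87 CPM in PXN DHT, 2.76, 2.33 and 2.54 CPM in PXN vehicle, 1.93, 1.39 and 2.02 CPM in NSP DHT, and 3.02, 1.94 and 1.35 CPM in NSP vehicle. None of its comparisons passed in edgeR, and the intervals were wide, for example -0.65 to 0.37 for DHT with PXN siRNA. TMPRSS3 had 0 counts in all 3 PXN DHT libraries, which allows up to 0.0367 CPM over the group at 3 counts. It had 0, 3 and 2 counts in PXN vehicle, 1, 1 and 1 in NSP DHT, and 0, 0 and 1 in NSP vehicle. These counts are at or near the floor and allow no comparison.

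The inhibitor genes had no called change in the 4 comparisons. SPINT1 had 342, 330 and 360 CPM in PXN DHT, against 376, 354 and 410 CPM in PXN vehicle. It had 342, 347 and 362 CPM in NSP DHT, against 419, 357 and 370 CPM in NSP vehicle. The DHT log2 fold changes were -0.14 with PXN siRNA (adjusted p = 0.13) and -0.12 with NSP siRNA (adjusted p = 0.19), and both passed with upper-quartile scaling, at -0.23 with PXN siRNA (adjusted p = 0.015) and -0.19 with NSP siRNA (adjusted p = 0.034). SPINT2 had 387, 341 and 347 CPM in PXN DHT, 376, 333 and 370 CPM in PXN vehicle, 410, 392 and 388 CPM in NSP DHT, and 434, 337 and 344 CPM in NSP vehicle. In DHT all PXN libraries were below all NSP libraries for SPINT2, by -0.15 (-0.33 to 0.03), which was not called (edgeR adjusted p = 0.29). Without NSP vehicle replicate 1, SPINT2 was called higher with DHT under NSP siRNA (0.22, adjusted p = 0.026). TMPRSS2, HPN and SPINT2 were highest in replicate 1 in all 4 groups, as were 5.58% of the genes tested.

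These calls are given here beside the shares over all tested genes. Of the 7 genes tested, 1 rose and 1 fell with DHT under PXN siRNA, where 38% of all tested genes were called (20.1% up, 17.9% down). With NSP siRNA 2 rose with DHT, where 40.5% were called (21.6% up, 18.9% down). The split over all genes was 3234 up and 2886 down with PXN siRNA and 3481 up and 3053 down with NSP siRNA, and with upper-quartile scaling it was 2262 up and 3935 down with PXN siRNA and 2707 up and 3896 down with NSP siRNA. Paxillin siRNA raised 1 of the 7 in vehicle, where 20.5% of genes were called (10.7% up), and none in DHT, where 13.3% were called. In DHT, DESeq2 and limma-voom also called none of the 7, and PRSS8 alone of the 7 had an unadjusted edgeR p under 0.05. None of the 7 was called for the interaction by edgeR, DESeq2 or limma-voom, where edgeR called 8 of all genes (0.0496%, with 0.0372% up and 0.0124% down), and none of the 7 had an unadjusted p under 0.05. Groups did not overlap in CPM for TMPRSS2 and ST14 with DHT under PXN siRNA (48.6% of genes), for TMPRSS2 and HPN with DHT under NSP siRNA (50.4%), for PRSS8 with PXN siRNA in vehicle (35.9%), and for PRSS8 and SPINT2 with PXN siRNA in DHT (32.1%). A share of called genes below or near the background is no result about this set.

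**Figure D2:**
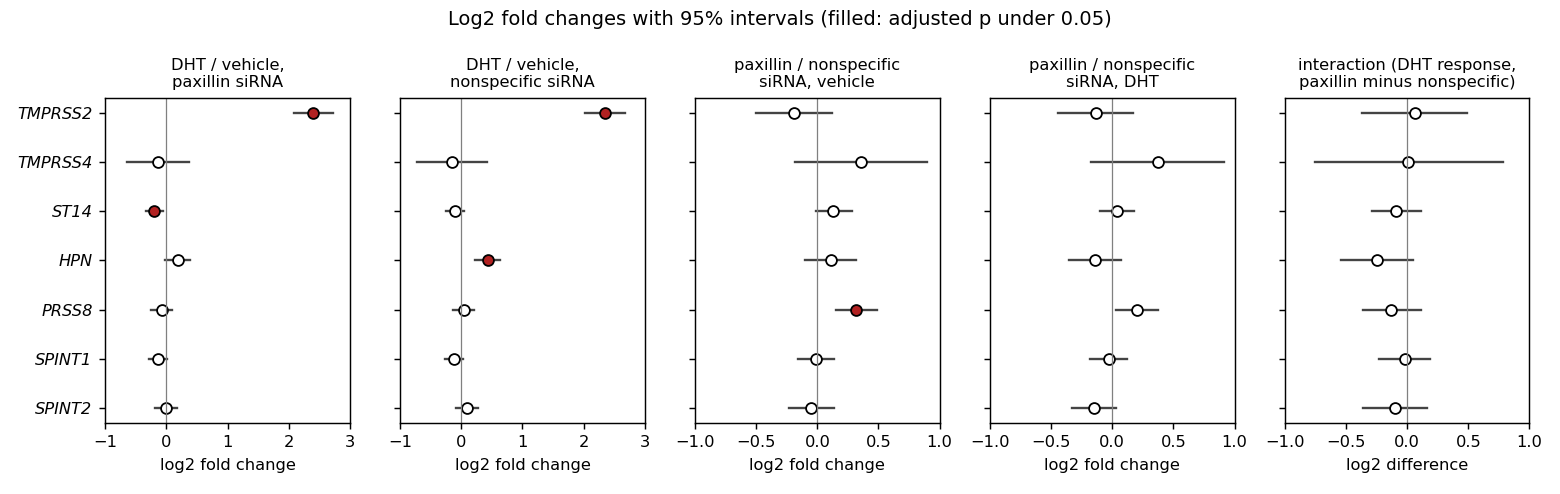
Log2 fold changes (x axis) of the 7 tested genes in the 4 comparisons and the interaction, with 95% intervals from edgeR; filled points have an adjusted p under 0.05, and the DHT panels have a wider axis. TMPRSS2 stands at 2.40 with PXN siRNA and 2.35 with NSP siRNA, and every other point lies between -0.25 and 0.43.

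To compare genes with each other, CPM was divided by the length of each gene's exons in kilobases. In DHT, TMPRSS2 was the highest of the 8 per length, at 381 ± 15.4 CPM per kb with PXN siRNA and 419 ± 33.8 CPM per kb with NSP siRNA (SD, n = 3 each). In vehicle it was at 72.1 ± 10.9 CPM per kb with PXN siRNA and 82.5 ± 24.3 CPM per kb with NSP siRNA. ST14 had the highest mean in vehicle, at 139 ± 5.85 CPM per kb with PXN siRNA and 126 ± 10.1 CPM per kb with NSP siRNA. In PXN DHT libraries the order went on with ST14 (121 ± 5.21), SPINT1 (97.1 ± 4.28), HPN (93.6 ± 11.5), PRSS8 (87.9 ± 6.39) and SPINT2 (68.9 ± 4.88 CPM per kb), where SPINT1, HPN and PRSS8 were not all separated. In PXN vehicle libraries ST14 was followed by SPINT1 (107 ± 8.04), PRSS8 (93 ± 9.8), HPN (82.2 ± 5.29), TMPRSS2 and SPINT2 (69.2 ± 4.53 CPM per kb), and each neighbour below ST14 overlapped the next. In NSP DHT libraries ST14 (118 ± 1.57) was followed by HPN (103 ± 11.5) and SPINT1 (99 ± 2.98), which overlapped, and by PRSS8 (76.7 ± 2.28) and SPINT2 (76.3 ± 2.25 CPM per kb), which overlapped too. In NSP vehicle libraries every neighbour in the order ST14, SPINT1 (108 ± 9.26), TMPRSS2, HPN (76.4 ± 9.12), PRSS8 (74.5 ± 6.34) and SPINT2 (71.5 ± 10.4 CPM per kb) overlapped the next. TMPRSS4 was at 0.179 to 0.256 CPM per kb on average in the 4 groups. The vehicle order turned on the length used. With the longest transcript as length, TMPRSS2 was at 136 CPM per kb in PXN vehicle, below ST14 (171) and PRSS8 (150) and above SPINT1 (124), and at 156 CPM per kb in NSP vehicle, beside ST14 at 155. In DHT TMPRSS2 stayed highest, at 720 CPM per kb with PXN siRNA and 791 CPM per kb with NSP siRNA.

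Summed per length, the 6 proteases stood at 4.12 ± 0.06 times the 2 inhibitors in PXN DHT, against 2.19 ± 0.0996 times in PXN vehicle. With NSP siRNA the ratio was 4.09 ± 0.243 in DHT and 2 ± 0.0381 in vehicle (SD, n = 3 each). The DHT and vehicle libraries did not overlap in this ratio under either siRNA. TMPRSS2 made up 55.7% of the protease sum in PXN DHT and 18.7% in PXN vehicle, and 58.4% in NSP DHT and 22.6% in NSP vehicle. Without TMPRSS2 the ratio was 1.82 in PXN DHT and 1.78 in PXN vehicle, and 1.7 in NSP DHT and 1.55 in NSP vehicle. The ratio of ST14 to SPINT1, matriptase to its inhibitor HAI-1, was 1.25 in PXN DHT and 1.3 in PXN vehicle, and 1.19 in NSP DHT and 1.17 in NSP vehicle. The ratio of HPN to SPINT2, hepsin to HAI-2, was 1.42, 1.39 and 1.25 in PXN DHT libraries, against 1.22, 1.25 and 1.1 in PXN vehicle libraries. It was 1.45, 1.38 and 1.22 in NSP DHT libraries, against an average of 1.07 in NSP vehicle, where all 3 libraries were below the lowest NSP DHT library, and no test was run. These are ratios of RNA, and with the longest transcript as the length the protease to inhibitor ratios were 5.54 in PXN DHT, 2.63 in PXN vehicle, 5.51 in NSP DHT and 2.42 in NSP vehicle.

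**Figure D3:**
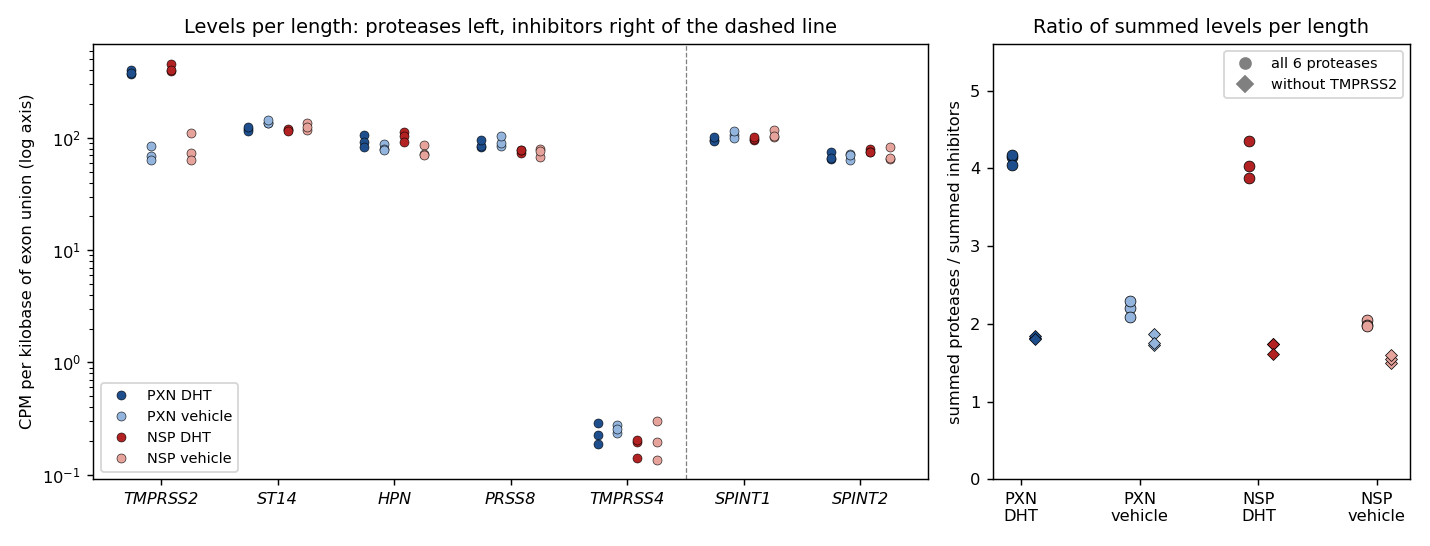
Left, CPM per kilobase of exons on a log axis for 7 genes in each library (points), by group; right, the ratio of summed proteases to summed inhibitors in each library, with all 6 proteases (circles) and without TMPRSS2 (diamonds). The ratio lies at 3.88 to 4.35 in DHT libraries and at 1.97 to 2.29 in vehicle libraries, and the diamonds lie below 2 in all groups.

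Other proteases of the family were mostly not expressed at a testable level. Of 13 further type II transmembrane proteases 4 were tested, and 1 rose and 1 fell with DHT under PXN siRNA, while 1 rose and 3 fell with DHT under NSP siRNA. Their median log2 fold change was -0.58 with PXN siRNA and -0.96 with NSP siRNA, against -0.01 over all genes in both. Of all tested genes, 20.1% rose and 17.9% fell with DHT under PXN siRNA, and 21.6% rose and 18.9% fell under NSP siRNA. TMPRSS11E, also called DESC1, rose 2.22-fold with DHT under PXN siRNA (adjusted p = 0.004) and 6.95-fold under NSP siRNA (adjusted p = 8.5e-06), both by edgeR. TMPRSS13 fell with DHT to 0.528 of vehicle with PXN siRNA (adjusted p = 5.3e-05) and to 0.640 with NSP siRNA (adjusted p = 0.0032). CORIN, whose product processes the precursor of atrial natriuretic peptide, fell with DHT to 0.412 of vehicle under NSP siRNA (adjusted p = 0.0028) and was at 0.849 under PXN siRNA (adjusted p = 0.52). None of the 4 was called for the interaction. TMPRSS11E had 19 summed counts in NSP vehicle and CORIN 34 in NSP DHT, so their folds under NSP siRNA rest on few reads. PXN siRNA raised 2 of the 4 in DHT (median log2 fold change 0.79) and 2 in vehicle (median 0.45), against medians of 0 in DHT and -0.01 in vehicle over all genes. It raised 6.34% of all tested genes in DHT and 10.7% in vehicle. TMPRSS13 was 1.47-fold higher with PXN siRNA in DHT (adjusted p = 0.023) and 1.78-fold higher in vehicle (adjusted p = 0.00072). Its call in DHT was lost without PXN DHT replicate 2 or 3 or any 1 NSP DHT library, with adjusted p values of 0.053 to 0.12. The other called genes were CORIN in DHT and TMPRSS11E in vehicle, named after their values were seen, since they were under 1 CPM there.

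Among 5 other membrane-tethered trypsin-like proteases 2 were tested. PRSS27 was 1.73-fold higher with PXN siRNA in DHT (edgeR adjusted p = 0.0019) and 1.94-fold higher in vehicle (adjusted p = 0.0004). PRSS22 rose 1.55-fold with DHT under NSP siRNA (adjusted p = 0.015), a call lost without NSP DHT replicate 1 (0.065) or NSP vehicle replicate 3 (0.087). Of 16 other inhibitors of trypsin-like proteases 7 were tested. With DHT 2 rose and 2 fell under PXN siRNA (median log2 fold change 0) and 1 fell under NSP siRNA (median -0.08). Of all tested genes, 20.1% rose and 17.9% fell under PXN siRNA, and 21.6% rose and 18.9% fell under NSP siRNA. SERPINB5, which encodes maspin, fell with DHT to 0.582 of vehicle with PXN siRNA (adjusted p = 0.0021) and to 0.601 with NSP siRNA (adjusted p = 0.0067). APP, whose longer isoforms carry a Kunitz inhibitor domain, fell with PXN siRNA to 0.594 in DHT (adjusted p = 0.00013) and 0.599 in vehicle (adjusted p = 9.3e-05). PXN siRNA raised 1 and lowered 2 of the 7 in DHT (median 0.06) and raised 1 and lowered 1 in vehicle (median 0.03). Of all tested genes, it raised 6.34% and lowered 7% in DHT, and raised 10.7% and lowered 9.78% in vehicle.

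A further list held genes whose products these proteases cut or signal through. Of 23 listed substrates and receptors 18 were tested, and with DHT 4 rose and 8 fell under PXN siRNA (median log2 fold change -0.47) and 3 rose and 7 fell under NSP siRNA (median -0.37). Over all genes tested, 20.1% rose and 17.9% fell under PXN siRNA and 21.6% rose and 18.9% fell under NSP siRNA, and under upper-quartile scaling more genes fell than rose. HGF had 0 counts in all groups. MET, the receptor of HGF, was at 0.197, 0.354 and 0.194 CPM in PXN DHT, against 1.58, 1.82 and 1.59 CPM in PXN vehicle. It was at 0.643, 0.567 and 0.600 CPM in NSP DHT, against 3.10, 2.75 and 3.91 CPM in NSP vehicle. DHT libraries were below vehicle libraries under both siRNAs, and MET fell to 0.150 of vehicle with PXN siRNA (edgeR adjusted p = 1.1e-06) and 0.186 with NSP siRNA (adjusted p = 5.5e-07). F2R, the thrombin receptor PAR1, fell with DHT to 0.258 with PXN siRNA (adjusted p = 2.2e-10) and 0.272 with NSP siRNA (adjusted p = 3.6e-10). F2RL1, the receptor PAR2, moved the other way and rose 1.48-fold with PXN siRNA (adjusted p = 3.2e-07) and 1.55-fold with NSP siRNA (adjusted p = 9.5e-08). The epithelial sodium channel gene SCNN1G fell with DHT to 0.355 with PXN siRNA (adjusted p = 0.0038) and 0.446 with NSP siRNA (adjusted p = 0.0063). SCNN1G had only 41 summed counts in PXN DHT and 95 in NSP DHT. SCNN1A, a far more abundant gene of that channel, averaged 226 CPM in PXN DHT against 262 CPM in PXN vehicle. With NSP siRNA, SCNN1A averaged 251 CPM in DHT against 270 CPM in vehicle.

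PXN siRNA raised 1 and lowered 3 of these 18 genes in DHT (median log2 fold change -0.14), and raised 3 and lowered 4 in vehicle (median -0.15). Of all tested genes, it raised 6.34% and lowered 7% in DHT, and raised 10.7% and lowered 9.78% in vehicle. DSG2, a desmosomal cadherin, fell with PXN siRNA to 0.708 in DHT (edgeR adjusted p = 0.00051) and 0.621 in vehicle (adjusted p = 2.3e-05). LAMB3, a laminin chain, rose 3.99-fold with PXN siRNA in vehicle (adjusted p = 0.00063) and was 1.65-fold higher in DHT (adjusted p = 0.17). It had only 45 summed counts in NSP vehicle. MET fell to 0.510 with PXN siRNA in vehicle (adjusted p = 0.0044).

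The list of secreted kallikreins held related trypsin- and chymotrypsin-like proteases, and the pseudogene KLKP1, which was among the 8 tested. With DHT 6 of the 8 were called higher under PXN siRNA (median log2 fold change 0.85) and 5 under NSP siRNA (median 0.97). None was called lower, where 20.1% of all genes were higher under PXN siRNA and 21.6% under NSP siRNA. KLK2 rose 8.64-fold with PXN siRNA (edgeR adjusted p = 1.1e-09) and 7.74-fold with NSP siRNA (adjusted p = 2.4e-09). KLK3, which encodes prostate-specific antigen, rose 2.31-fold with PXN siRNA (adjusted p = 6.4e-08) and 2.07-fold with NSP siRNA (adjusted p = 3.9e-07). KLK4 rose 1.93-fold with PXN siRNA (adjusted p = 4.8e-09) and 1.85-fold with NSP siRNA (adjusted p = 1.3e-08). PXN siRNA lowered 1 of the 8 in DHT (median -0.08) and 2 in vehicle (median -0.15). It lowered 7% of all tested genes in DHT and 9.78% in vehicle. KLK12 fell with PXN siRNA to 0.507 in vehicle (adjusted p = 0.0026), and the pseudogene KLKP1, whose reads may be shared with its paralogs, fell to 0.482 in DHT (adjusted p = 0.0024).

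Of the ETS genes known as TMPRSS2 fusion partners, ERG had 0 to 2 counts per library, ETV1 0 to 3, ETV4 0 to 7 and ETV5 0 to 14. ETV5 alone was tested. It had 4, 2 and 0 counts in PXN DHT, against 14, 5 and 8 counts in PXN vehicle (edgeR adjusted p = 0.017), and against 9, 10 and 12 counts in NSP DHT (edgeR adjusted p = 0.013). At these counts its 2 calls rest on few reads.

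**Figure D4:**
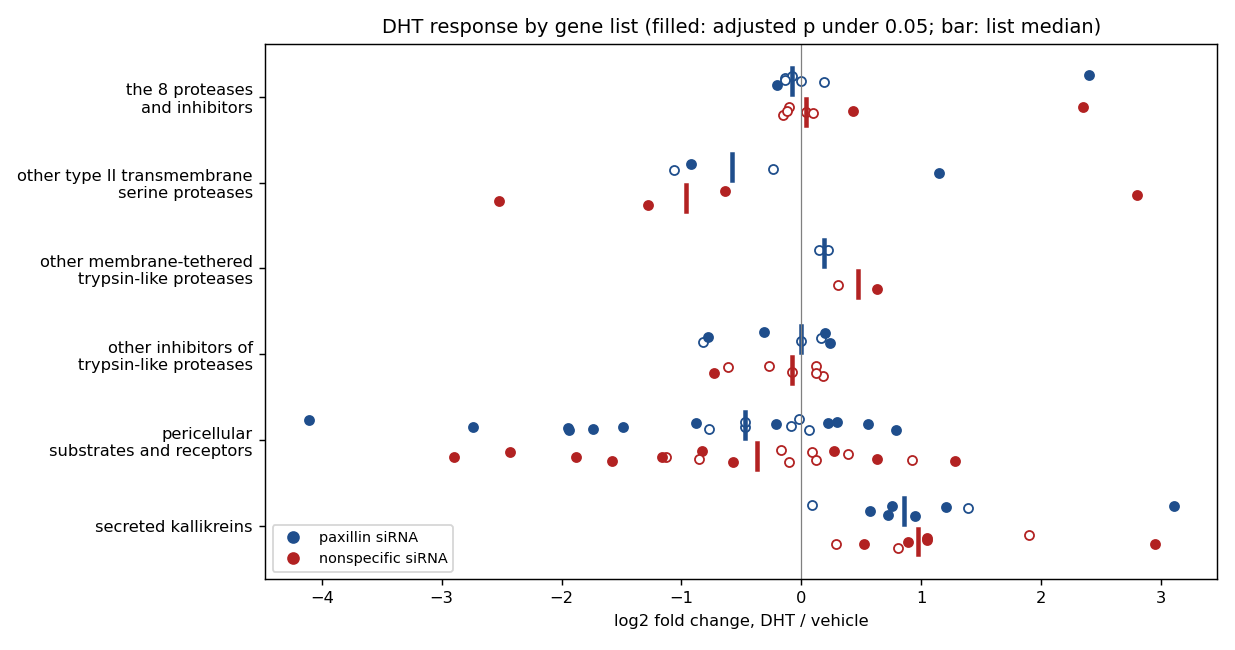
Log2 fold changes of DHT over vehicle (x axis) for the tested genes of the set and of 5 related lists, with PXN siRNA above NSP siRNA in each row; filled points have an adjusted p under 0.05 and bars are list medians. The kallikrein medians lie at 0.85 with PXN siRNA and 0.97 with NSP siRNA, and those of the 7 tested genes of the set at -0.08 with PXN siRNA and 0.04 with NSP siRNA.

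Around TMPRSS2 at 21q22, 17 further genes were listed and 14 tested. With DHT 3 rose and 7 fell under PXN siRNA (median log2 fold change -0.44) and 3 rose and 4 fell under NSP siRNA (median -0.22). Over all tested genes, 20.1% rose and 17.9% fell with DHT under PXN siRNA, and 21.6% rose and 18.9% fell under NSP siRNA. The median over all genes was -0.01 under both siRNAs. RIPK4, a kinase of epidermal differentiation whose start lies 236 kb from that of TMPRSS2, rose 2.29-fold with PXN siRNA (edgeR adjusted p = 3.7e-10) and 2.80-fold with NSP siRNA (adjusted p = 3e-11). PRDM15, at 348.4 kb, rose 1.52-fold under both siRNAs (adjusted p = 0.00041 with PXN and 0.00047 with NSP siRNA). PDE9A, a cyclic GMP phosphodiesterase gene at 1123 kb, rose 2.36-fold with PXN siRNA (adjusted p = 1.1e-07) and 2.17-fold with NSP siRNA (adjusted p = 4.7e-07). C2CD2 and ZBTB21, which lie between PRDM15 and PDE9A, were not called, with log2 fold changes for C2CD2 of -0.02 with PXN siRNA and 0.10 with NSP siRNA, and for ZBTB21 of -0.05 with PXN siRNA and -0.10 with NSP siRNA. ABCG1, a sterol exporter gene, fell with DHT to 0.415 with PXN siRNA (adjusted p = 3.9e-07) and 0.442 with NSP siRNA (adjusted p = 2.6e-06). TFF1, a trefoil peptide gene, fell to 0.430 with PXN siRNA (adjusted p = 0.00019) and 0.435 with NSP siRNA (adjusted p = 0.0011).

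PXN siRNA raised 6 of the 14 in DHT (median log2 fold change 0.22) and 7 in vehicle (median 0.37), and none was called lower, where 6.34% of all genes were higher in DHT (median 0) and 10.7% in vehicle (median -0.01). UMODL1 was 3.70-fold higher in vehicle (edgeR adjusted p = 0.0014), FAM3B 3.17-fold (adjusted p = 0.0043) and RSPH1 1.71-fold (adjusted p = 0.0036), and in DHT RSPH1 was 1.66-fold higher (adjusted p = 0.008). In NSP vehicle UMODL1 had only 22 summed counts and FAM3B 32. TMPRSS2 itself was at -0.13 in DHT and -0.19 in vehicle, neither called.

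**Figure D5:**
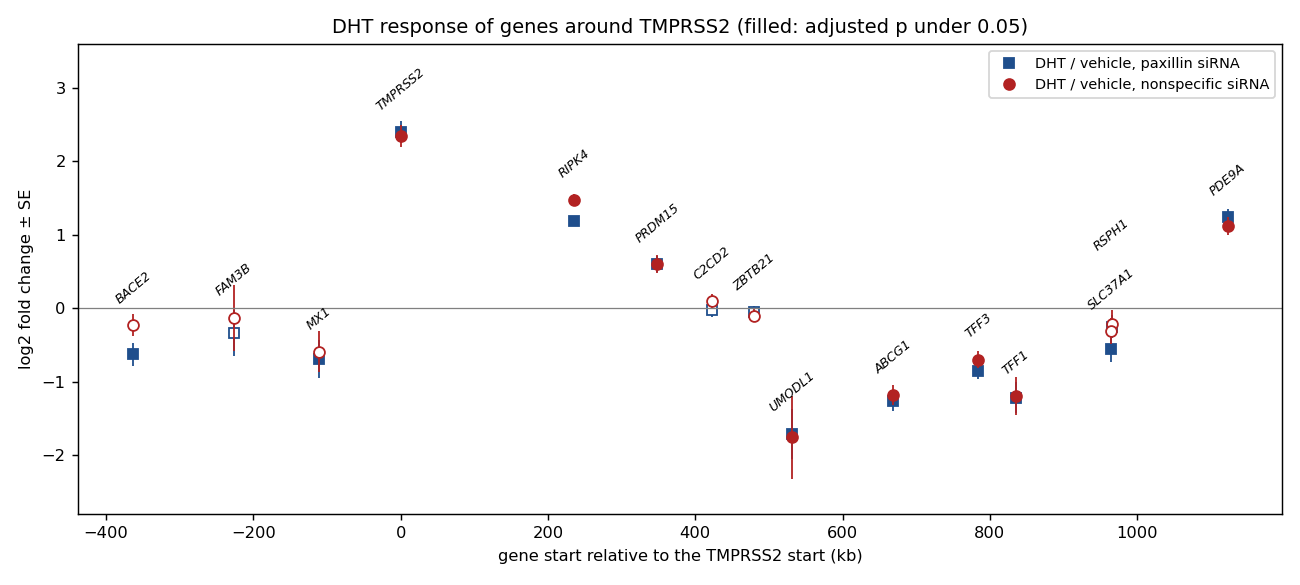
Log2 fold change of DHT over vehicle with its SE (y axis) for TMPRSS2 and the 14 tested genes around it, placed by the distance of their start from the TMPRSS2 start in kilobases (x axis), with PXN siRNA as squares and NSP siRNA as circles; filled symbols have an adjusted p under 0.05. TMPRSS2 lies highest, RIPK4, PRDM15 and PDE9A lie above 0, and UMODL1, ABCG1, TFF3 and TFF1 lie below 0 under both siRNAs.

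The gene most like TMPRSS2 in log2 CPM over the 12 libraries, among 9133 genes with a mean of at least 10 CPM, was KLK2 (Pearson r = 0.999), followed by PHF8 and ENDOD1 (0.997 each). For HPN these were MYC (0.984), GART (0.976) and RAB3A (0.961). For ST14 they were TMEM132A (0.967), ESYT3 (0.953) and SLC29A1 (0.946), and for PRSS8 they were ITPKB (0.967), BRF1 (0.955) and XRCC3 (0.949). For SPINT1 they were FBXO34 (0.962), LAMB2 (0.933) and CERS2 (0.931), for SPINT2 MBTPS1 (0.936), PRKCSH (0.922) and COLGALT1 (0.915), and for TMPRSS4 SLX4 (0.893), LUC7L (0.863) and KLHL17 (0.857). The 12 libraries share their groups and replicate numbers, and for TMPRSS2 they form 2 clusters, DHT and vehicle, so these values describe likeness only.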

How the data were processed

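RNA was measured in 12 libraries of C4-2 cells, 3 for each of 4 groups; per the labels' protocols the library kit was TruSeq stranded mRNA. The authors deposited whole-number counts per gene symbol, with unequal library totals, taken here as raw counts. Per the submitters' processing notes, Trimmomatic 0.36, STAR 2.5.2b, featureCounts of Subread 1.5.0p3 and the build GRCh38 were used. Neither the annotation release nor the strand setting is stated in those notes.

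Counts were analysed with edgeR 4.0.16 in R 4.3.3: filterByExpr (minimum count 10, minimum total 15), TMM scaling, and a quasi-likelihood fit of 4 group means to all 12 libraries, with Benjamini-Hochberg adjustment over the 16115 genes kept and calls at an adjusted p under 0.05. The SE comes from the F statistic, and intervals are 95%. CPM uses the TMM-scaled totals; floors are 3 counts per group and, like the intervals of depth, cover counting error only. Exon lengths and positions come from GENCODE 29. The fit was also run on simulated counts with few changed genes, which cannot test the scaling where as many genes change as were called for DHT here.

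Replicate numbers were taken to pair the samples: over 9283 genes, the deviation of a library from its group mean had a correlation of 0.18 to 0.51 with that of each same-number library (18 pairs), against -0.45 to 0.24 otherwise (36 pairs). The main fit held no term for these pairs. They entered only the same-number ratios and the alternative fit with the replicate block. Within groups, replicates differed beyond sampling noise (chi-square per degree of freedom 6.16 to 18.6), so each library counts as 1.

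The 8 genes and the lists were chosen with earlier results of these data known. Named beside the 8 genes were PXN, FKBP5 and KLK3, from each list at most 3 rising and 3 falling called genes per comparison with a mean of at least 1 CPM in either group, all ETS genes and antisense partners, and the 3 genes most correlated with each tested member; clone, LINC, microRNA and antisense names were left out of the last. Results of some further genes and of 1 list under this rule are not reported here. Each result was recomputed with DESeq2 1.42.0, limma-voom (limma 3.58.1), upper-quartile or RLE scaling, all genes kept, the replicate number as a block, only the 2 groups compared, a threshold of 0.01, each library left out, and lengths from the longest transcript.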

Additional observations from a re-analysis of the deposited data

How the results depend on the processing

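TMPRSS2 kept its rise with DHT in every alternative run, at 2.31 to 2.52 with PXN siRNA and 2.20 to 2.61 with NSP siRNA when 1 library was left out, and HPN kept its rise with NSP siRNA (0.36 to 0.53). Of 693 values of single genes of the set under alternatives, 658 kept direction and side of the threshold, 9 passed and 6 no longer passed; 20 changed sign, none of them called. Of 1700 values of other named genes, 78 no longer passed. Upper-quartile scaling put the median log2 fold change of all genes at -0.09 for DHT with PXN siRNA and -0.08 with NSP siRNA. For DHT with NSP siRNA it called 4 of the 7 genes (2 up, 2 down) and turned PRSS8 to -0.03. Over all 16115 genes it called 6603 there (2707 up, 3896 down). Without the filter, SPINT1 was at 0.01 for PXN siRNA in vehicle. For PXN siRNA in DHT, 1 gene of the set was then called, where 2687 of 34208 genes were called. The interaction had 142 called genes without the filter, against 41 with DESeq2 and 0 with limma-voom. TMPRSS4 had an interaction of -0.11 with limma-voom. At an adjusted p under 0.01, 1 gene of the set was called for DHT with PXN siRNA, where 4208 of all genes were called. At that threshold, 954 of all genes were called for PXN siRNA in DHT, 1651 in vehicle and 0 for the interaction. With the replicate block, the pairing raised the counts to 3486 genes and 1 of the set (PRSS8) for PXN siRNA in DHT and 97 genes for the interaction, and it changed no other call of the set but that of HPN with PXN siRNA. With the longest transcript as length, the protease to inhibitor ratio was 5.54 in PXN DHT, 2.63 in PXN vehicle, 5.51 in NSP DHT and 2.42 in NSP vehicle. The causes of these shifts were not tested.

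With each library left out in turn, the genes of the set called were 1 to 2 for DHT with PXN siRNA, 2 to 3 for DHT with NSP siRNA and 0 to 2 for PXN siRNA in vehicle. Over all genes, 5139 to 6363 were called for DHT with PXN siRNA and 5503 to 6714 for DHT with NSP siRNA. For PXN siRNA, 1178 to 2417 of all genes were called in DHT and 1848 to 3524 in vehicle, and 0 to 26 for the interaction. Values that changed sign ran from -0.41 to 0.12 for TMPRSS4 and -0.02 to 0.09 for PRSS8 (DHT, NSP siRNA); for PXN siRNA in vehicle from -0.34 to 0.08 for TMPRSS2, -0.06 to 0.07 for SPINT1 and -0.10 to 0.08 for SPINT2; and for the interaction from -0.21 to 0.20 for TMPRSS2, -0.27 to 0.26 for TMPRSS4 and -0.10 to 0.03 for SPINT1. Without NSP vehicle replicate 1, ST14 was called higher with PXN siRNA in vehicle (0.20, adjusted p = 0.046). The low counts of TMPRSS3, TMPRSS4, TMPRSS11E, CORIN, UMODL1, FAM3B, LAMB3, MET, SCNN1G and the ETS genes limit what their values can show.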
